A study of Rattus norvegicus with 6 samples.

Results

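The genes described are those of the MHC class II pathway in rat sensory ganglia: RT1-Ba and RT1-Bb, RT1-Da and RT1-Db1, RT1-DMa and RT1-DMb, RT1-DOb, the invariant chain gene Cd74 and the class II transactivator gene Ciita. These 9 genes were matched by symbol among 22864 genes of the deposited table, and all 9 passed the filter on low counts that left 15531 genes. They were picked with the levels of all 6 libraries known, including that class II genes lay above sham in the ischaemia libraries. Differences from sham are therefore given as a description, with no test, and CPIP+ETA against CPIP+Veh shares its CPIP+Veh libraries with that description.

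Bulk RNA sequencing was done on L4 to L6 dorsal root ganglia, taken from the operated side of wild-type male rats on day 7. The 3 groups were Sham+Veh, which had the same anaesthesia and no ring, CPIP+Veh, in which an O-ring closed the hind limb close to the ankle for 3 h, and CPIP+ETA, which had the ring and then etanercept. CPIP stands in the field for chronic post-ischaemia pain, a rodent model of complex regional pain syndrome. Etanercept (ETA), a decoy made from a TNF receptor, or its vehicle (Veh) was given each day into the intrathecal space once 2 days had passed, so every group had daily intrathecal injections. Each group had 2 libraries, and the labels name no strain, age or pooling of animals. Nothing states that the libraries of a group are from separate rats, so spreads and p-values cover these samples only and may be technical.

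MHC class II molecules are pairs of an alpha and a beta chain that show peptides from engulfed or recycled proteins to CD4 T cells. In the rat, RT1-B and RT1-D are the peptide-presenting pairs, the counterparts of HLA-DQ and HLA-DR in people. The invariant chain Cd74 fills the groove during assembly, RT1-DM helps to swap its last fragment for a peptide, RT1-DO restrains RT1-DM, and Ciita is the coactivator that switches these genes on together. In peripheral ganglia class II is known mainly from resident macrophages, and it can be induced in other cells by interferon gamma.

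Class II promoters are known for a common arrangement, an X box followed by a Y box, which RFX and NF-Y proteins bind and to which Ciita is recruited. RefSeq promoters (build GRCr8, a later build than the Rnor_6.0 of the counts) were found for 7 of the 9 genes by gene ID, all but RT1-DMb and Ciita. The windows below are shown so that this known arrangement can be compared between the genes. Some match both patterns searched here and others do not, and a missing match does not show that a promoter lacks an X box. Each runs from 5′ to 3′ on the gene's own strand, lies before the gene start, and has in capitals the X box core and the Y box, except that in RT1-Ba the first capitals are the letters TGACGTCA and in Cd74 the only capitals are the Y box on the opposite strand.
RT1-Da, chr20:4515327-4515376, plus strand: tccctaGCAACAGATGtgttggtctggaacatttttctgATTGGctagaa
RT1-Db1, chr20:4560232-4560280, minus strand: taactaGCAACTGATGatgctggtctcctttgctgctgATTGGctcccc
RT1-Bb, chr20:4604169-4604217, minus strand: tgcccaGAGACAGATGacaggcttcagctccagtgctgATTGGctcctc
RT1-Ba, chr20:4576972-4577024, plus strand: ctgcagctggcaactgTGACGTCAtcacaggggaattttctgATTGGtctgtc
RT1-DMa, chr20:4712389-4712438, minus strand: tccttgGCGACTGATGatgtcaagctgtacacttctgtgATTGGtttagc
RT1-DOb, chr20:4627596-4627642, minus strand: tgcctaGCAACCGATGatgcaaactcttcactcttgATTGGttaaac
Cd74, chr18:56526977-56527033, plus strand: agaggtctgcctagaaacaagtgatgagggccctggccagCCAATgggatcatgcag

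The X core was searched as G, any 2 bases, AC, any base and then GATG, and the Y box as ATTGG, each on both strands in the 250 bases before the gene start. Both were written with these promoters in view, so matches describe the sequences only. The X core was present in RT1-Bb, RT1-Da, RT1-Db1, RT1-DMa and RT1-DOb and in 1.94% of 13819 promoters of genes tested here, and ATTGG was present in all 7 members and in 34.5% of those promoters. In the same 5 members an ATTGG followed the X core on the same strand with 20 to 23 bases between them. That pair, allowed 5 to 30 bases apart with no overlap, was found in 0.13% of the promoters, 18 in all. Of those 18, 10 belonged to genes with an RT1 symbol: the 5 members, the class II gene RT1-Db2, and the class I genes RT1-CE3, RT1-CE5, RT1-CE10 and RT1-M3-1. RT1-Ba had no match to the X core and 1 match to TGACGTCA, letters held by 2.55% of the promoters, and Cd74 had neither. On the genome RT1-Da, RT1-Db2, RT1-Db1, RT1-Ba, RT1-Bb and RT1-DOb neighbour each other in that order, followed by Tap2, Psmb8, Tap1 and Psmb9 and then by RT1-DMb and RT1-DMa, while Cd74 lies on chromosome 18 and Ciita on chromosome 10.

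Library totals ran from 18285251 to 19981250 counts. Libraries of a group differed by more than sampling noise, with a mean chi-square per gene of 5.91 in Sham+Veh, 6.72 in CPIP+Veh and 9.83 in CPIP+ETA where counting error alone gives about 1. Levels below are CPM (counts scaled to a common library total) adjusted by TMM, a factor that aligns the bulk of genes between libraries, and fold changes and SEs are those of edgeR's quasi-likelihood fit. The labelled tissue carried its markers: 12 of 12 sensory neuron markers were measured, with a summed level of 19767 to 21847 CPM per library. In ganglion RNA, more cells of a type and more RNA per cell cannot be told apart.

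Summed over the 9 genes, the level was 298 and 303 CPM in Sham+Veh, 437 and 602 CPM in CPIP+Veh and 490 and 359 CPM in CPIP+ETA. Every ischaemia library lay above both sham libraries, and within each ischaemia group 1 library stood well above the other, CPIP+Veh 2 and CPIP+ETA 1. The CPIP+Veh mean was 1.73 times sham, or 1.46 times if its library 2 was left out. The CPIP+ETA mean was 1.41 times sham, or 1.20 times if its library 1 was left out. The sum is mostly Cd74 and the RT1-D and RT1-B chains, so the genes are given one by one.

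The RT1-B chains differed most from sham. RT1-Ba, the alpha chain, stood at 22.0 and 22.9 CPM in Sham+Veh, 44.4 and 79.3 CPM in CPIP+Veh, and 49.1 and 43.0 CPM in CPIP+ETA. All 4 ischaemia libraries were high, and neither ischaemia group overlapped sham. Its log2 fold change from sham was 1.46 (SE 0.25) in CPIP+Veh and 1.04 (SE 0.26) in CPIP+ETA, n = 2 libraries per group. RT1-Bb, the beta chain of the same molecule, stood at 14.9 and 15.5 CPM in Sham+Veh, 31.6 and 65.2 CPM in CPIP+Veh, and 38.5 and 25.1 CPM in CPIP+ETA. Again no ischaemia library reached down to sham, and CPIP+Veh 2 was 2.06 times as high as CPIP+Veh 1. The log2 fold change from sham was 1.67 (SE 0.36) in CPIP+Veh, or 1.05 without CPIP+Veh 2, and 1.06 (SE 0.36) in CPIP+ETA.

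The RT1-D chains showed the same order of groups with smaller differences. RT1-Da, the alpha chain, stood at 56.0 and 52.5 CPM in Sham+Veh, 74.5 and 103 CPM in CPIP+Veh, and 88.4 and 61.4 CPM in CPIP+ETA. CPIP+ETA 2 was the ischaemia library nearest to sham. Its log2 fold change from sham was 0.71 (SE 0.20) in CPIP+Veh and 0.47 (SE 0.21) in CPIP+ETA. RT1-Db1, the beta chain, stood at 32.5 and 33.9 CPM in Sham+Veh, 57.6 and 64.3 CPM in CPIP+Veh, and 68.0 and 37.1 CPM in CPIP+ETA. The CPIP+Veh libraries were close together, and the CPIP+ETA libraries lay 1.84 times apart, one above CPIP+Veh and one just over sham. Its log2 fold change from sham was 0.88 (SE 0.25) in CPIP+Veh and 0.67 (SE 0.25) in CPIP+ETA, the latter 0.17 without CPIP+ETA 1.

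Cd74, the invariant chain, stood at 142 and 152 CPM in Sham+Veh, 195 and 250 CPM in CPIP+Veh, and 204 and 161 CPM in CPIP+ETA. Its libraries were ordered as those of the RT1-B chains, with CPIP+Veh 2 at the top and CPIP+ETA 2 lowest among the ischaemia libraries. The log2 fold change from sham was 0.60 (SE 0.15) in CPIP+Veh and 0.32 (SE 0.15) in CPIP+ETA.

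**Figure D1:**
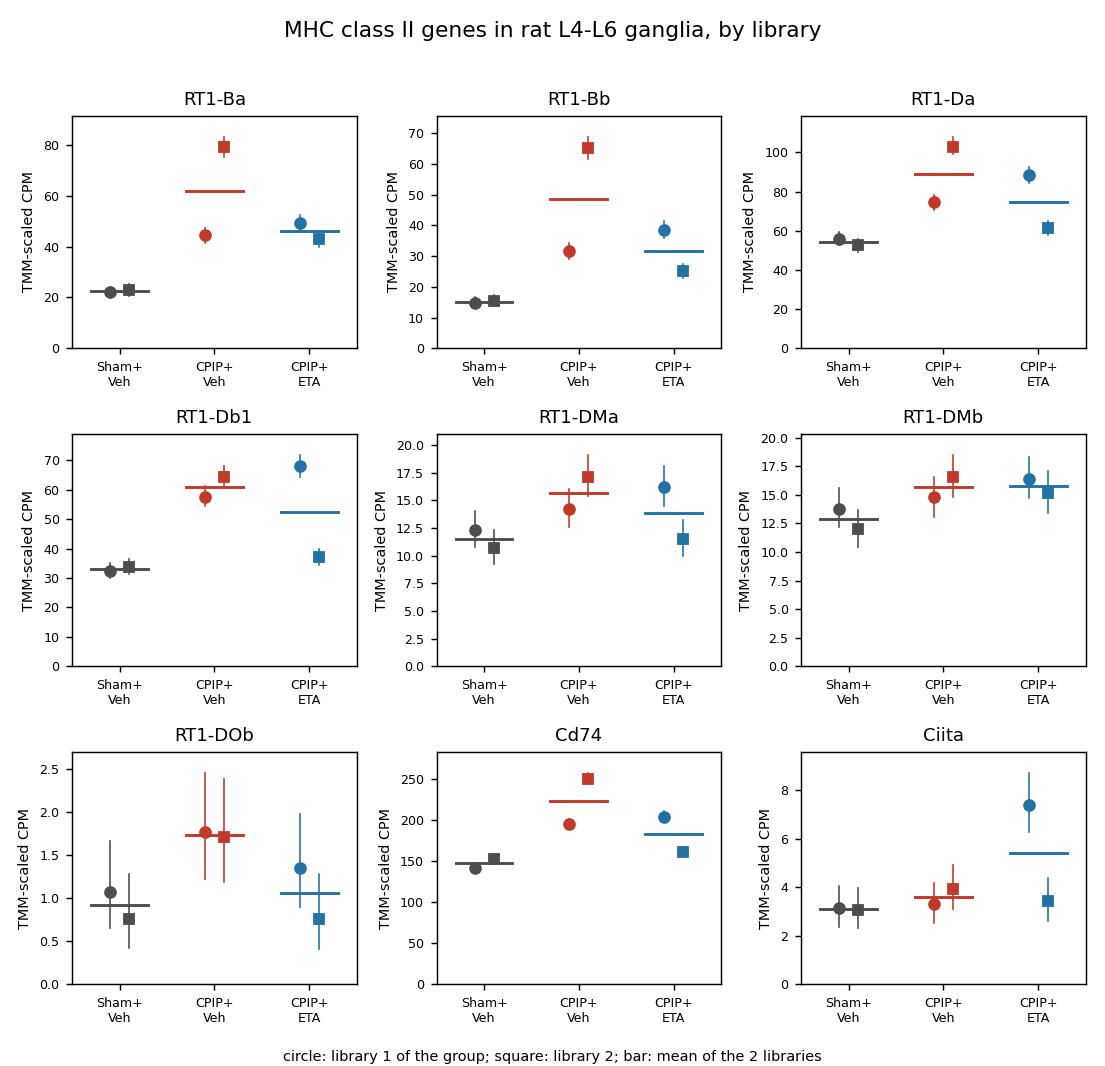
TMM-scaled CPM (vertical axis of each panel, starting at 0) of the 9 class II genes in the 6 libraries, by group, with thin lines for the exact 95% Poisson interval of the count and bars for the mean of the 2 libraries. RT1-Ba, RT1-Bb, RT1-Da, RT1-Db1, RT1-DMb, Cd74 and Ciita lie above both sham libraries in all 4 ischaemia libraries, as do 7.41% of all genes. Ciita stands out in CPIP+ETA 1 at 7.40 CPM.

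The RT1-DM chains, which exchange peptides, differed less from sham than the presenting chains in CPIP+Veh. RT1-DMa stood at 12.3 and 10.7 CPM in Sham+Veh, 14.2 and 17.1 CPM in CPIP+Veh, and 16.2 and 11.5 CPM in CPIP+ETA, and CPIP+ETA overlapped sham. Its log2 fold change from sham was 0.45 (SE 0.19) in CPIP+Veh and 0.27 (SE 0.19) in CPIP+ETA. RT1-DMb stood at 13.8 and 12.0 CPM in Sham+Veh, 14.8 and 16.6 CPM in CPIP+Veh, and 16.4 and 15.2 CPM in CPIP+ETA. Its groups kept apart from sham by a small margin, and the log2 fold change from sham was 0.28 (SE 0.12) for CPIP+Veh and 0.29 (SE 0.12) for CPIP+ETA. RT1-DOb, the beta chain of the RT1-DM inhibitor and known chiefly from B cells, was counted only 14 to 35 times per library. It stood at 1.08 and 0.766 CPM in Sham+Veh, 1.77 and 1.71 CPM in CPIP+Veh, and 1.36 and 0.762 CPM in CPIP+ETA, with a 95% Poisson interval of 0.661 to 1.67 CPM in Sham+Veh 1 and 1.23 to 2.46 CPM in CPIP+Veh 1. At this depth those intervals overlapped. Its log2 fold change from sham was 0.91 (SE 0.39) in CPIP+Veh, above those of RT1-Da, RT1-Db1 and Cd74, and 0.20 (SE 0.41) in CPIP+ETA, the latter -0.27 without CPIP+ETA 1.

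Ciita, the transactivator, stood at 3.14 and 3.06 CPM in Sham+Veh, 3.29 and 3.93 CPM in CPIP+Veh, and 7.40 and 3.43 CPM in CPIP+ETA. CPIP+ETA 1 alone was high: its 95% Poisson interval of 6.25 to 8.70 CPM lay above those of the other 5 libraries, which ran from 2.31 to 4.91 CPM. The log2 fold change from sham was 0.22 (SE 0.36) in CPIP+Veh and 0.81 (SE 0.36) in CPIP+ETA, the latter 0.15 without CPIP+ETA 1. Ciita shared its highest library with RT1-Db1, while RT1-Ba, RT1-Bb, RT1-Da, RT1-DMa, RT1-DMb and Cd74 were highest in CPIP+Veh 2 and RT1-DOb in CPIP+Veh 1.

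The ischaemia model was set against sham to see what it changed in the ganglion. All 9 genes lay above 0 in CPIP+Veh, with a median log2 fold change of 0.71 against 0.00 over all 15531 genes, and 49.0% of all genes lay above 0. In all 9 the CPIP+Veh libraries were above both sham libraries, as they were for 17.6% of genes. The genes were chosen on this difference, so these counts describe the choice and nothing is read from them.

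In CPIP+ETA against Sham+Veh the median log2 fold change of the 9 genes was 0.47 against 0.00 over all genes, and all 9 lay above 0, where 49.3% of all genes did. Of the 9, 7 had both libraries above both sham libraries, the exceptions being RT1-DMa and RT1-DOb, where 17.2% of all genes did. The same 7 genes had all 4 ischaemia libraries above both sham libraries, where 7.41% of all genes did. Here too the choice of genes used these libraries, so nothing is read from the counts, and both descriptions share the sham libraries.

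Etanercept within the model was examined by setting CPIP+ETA against CPIP+Veh, and no class II gene was called. The log2 fold changes were -0.43 (SE 0.24) for RT1-Ba, -0.60 (SE 0.34) for RT1-Bb, -0.25 (SE 0.20) for RT1-Da, -0.21 (SE 0.25) for RT1-Db1 and -0.28 (SE 0.15) for Cd74. The accessory chains had -0.17 (SE 0.18) for RT1-DMa, 0.01 (SE 0.11) for RT1-DMb and -0.71 (SE 0.39) for RT1-DOb, and Ciita had 0.59 (SE 0.35). Thus 2 of the 9 lay above 0, where 49.5% of all genes did. The genes were chosen with these libraries known, including that CPIP+Veh lay above sham. This count and those that follow are therefore a description, and nothing is read from them. The edgeR adjusted p ran from 0.938 to 0.992, with 0 of the 9 at an unadjusted p under 0.05, where 2.41% of all genes were higher and 2.74% lower at that level, and DESeq2 called 0 of the 9 and 0.135% of all genes. edgeR called 0% of all genes. The groups overlapped for every gene but RT1-DOb, whose CPIP+ETA libraries both lay below CPIP+Veh, as for 16.9% of all genes, and none had both above CPIP+Veh, as 15.7% of all genes did. The comparison depended on single libraries. The median of the 9 genes moved from -0.25 to 0.01 without CPIP+Veh 2 and to -0.01 without CPIP+ETA 2, but to -0.45 without CPIP+Veh 1 and to -0.52 without CPIP+ETA 1. Of the 9, 5 had an unadjusted p under 0.05 without CPIP+ETA 1, 3 without CPIP+Veh 1, 1 without CPIP+ETA 2 and 0 without CPIP+Veh 2, and edgeR called none in any of these fits.

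**Figure D2:**
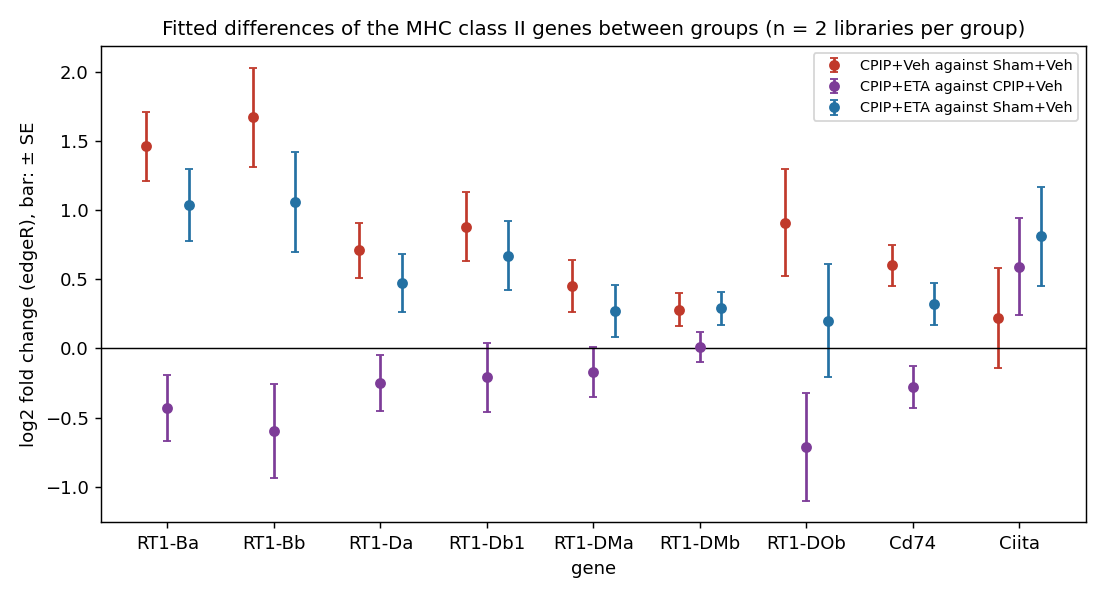
edgeR log2 fold change (vertical axis, points, with bars of ± 1 SE) of each of the 9 class II genes in the 3 comparisons, n = 2 libraries per group. The differences from sham are highest for RT1-Ba and RT1-Bb, at 1.46 and 1.67 in CPIP+Veh, and CPIP+ETA against CPIP+Veh runs from -0.71 for RT1-DOb to 0.59 for Ciita.

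Spread within groups was uneven and shared between the genes. In CPIP+ETA all 9 genes were higher in library 1 than in library 2, where 49.9% of all genes were, and in CPIP+Veh 8 of 9 were higher in library 2, where 50.4% of all genes were. CPIP+Veh 2 was the highest of the 6 libraries for 6 genes, as for 16.1% of all genes, CPIP+ETA 1 for RT1-Db1 and Ciita, as for 20% of all genes, and CPIP+Veh 1 for RT1-DOb, as for 15.2%. For the presenting chains the ratio of the higher to the lower library was 1.04 to 1.07 in Sham+Veh, 1.12 to 2.06 in CPIP+Veh and 1.14 to 1.84 in CPIP+ETA. Of the accessory chains, RT1-DMa was also lowest in Sham+Veh, with 1.16 there, 1.21 in CPIP+Veh and 1.41 in CPIP+ETA. In the same order of groups RT1-DMb had 1.15, 1.12 and 1.08 and RT1-DOb 1.41, 1.03 and 1.78, so sham was not lowest for these.

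Proportions between the chains do not depend on the scaling of a library. They come from the libraries known when the genes were chosen, and they share chains with each other, so they are given as a description. The RT1-B chains were 0.417 and 0.445 of the RT1-D chains by expected count in Sham+Veh, 0.575 and 0.861 in CPIP+Veh, then 0.560 and 0.692 in CPIP+ETA. Both ischaemia groups lay above sham. The 4 presenting chains together were 0.882 and 0.823 of Cd74 in Sham+Veh, 1.07 and 1.25 in CPIP+Veh, then 1.19 and 1.03 in CPIP+ETA, again without overlap with sham. The RT1-DM chains were 0.208 and 0.181 of the presenting chains in Sham+Veh, 0.139 and 0.108 in CPIP+Veh, then 0.134 and 0.160 in CPIP+ETA, where both groups lay below sham.

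The balance of alpha to beta chain was less uniform. RT1-Ba to RT1-Bb was 1.47 in both sham libraries, 1.41 and 1.22 in CPIP+Veh, both below sham, then 1.28 and 1.71 in CPIP+ETA, which spans sham. RT1-Da to RT1-Db1 was 1.73 and 1.55 in Sham+Veh, 1.29 and 1.61 in CPIP+Veh, then 1.30 and 1.66 in CPIP+ETA, so that both groups overlapped sham. RT1-DMa to RT1-DMb was 0.892 and 0.891 in Sham+Veh, 0.961 and 1.03 in CPIP+Veh, both above sham, then 0.987 and 0.758 in CPIP+ETA, which spans sham. With 2 libraries in each group, an exact permutation test could not reach 0.05 for any of these ratios, and none was run.

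RT1-Db2, a second beta chain gene beside RT1-Db1 and no member of the group, had a different order of libraries. It stood at 2.54 and 2.52 CPM in Sham+Veh, 2.23 and 0.202 CPM in CPIP+Veh, and 2.62 and 0.980 CPM in CPIP+ETA. Of the counts of RT1-Db1 and RT1-Db2 together, RT1-Db2 took 7.26% and 6.92% in Sham+Veh, 3.72% and 0.312% in CPIP+Veh, then 3.71% and 2.58% in CPIP+ETA. The exact 95% binomial interval was 0.0852% to 0.798% in CPIP+Veh 2 and 2.72% to 4.96% in CPIP+Veh 1, so these libraries of a group differed beyond counting error. Class II chains differ in sequence between rat strains and individuals, and the labels do not say how reads that match several genes were counted, so the split between such genes is uncertain. Whether it bears on the class II levels was not tested.

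**Figure D3:**
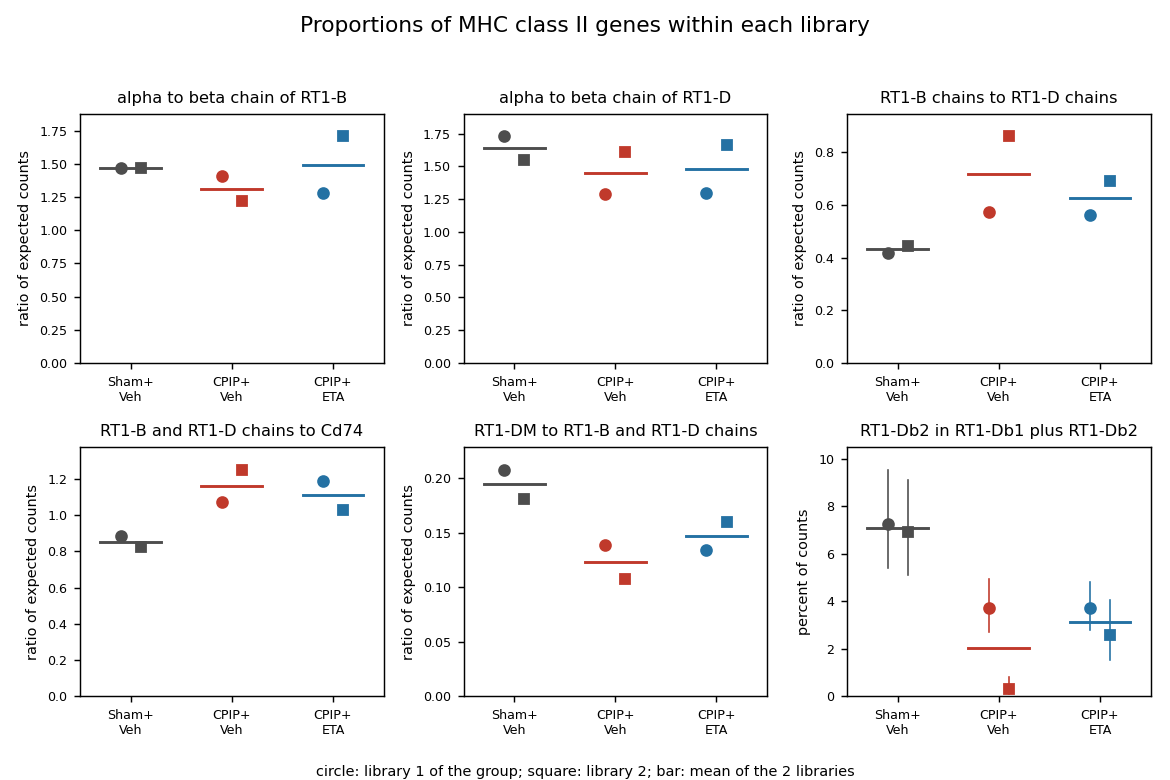
Ratios of expected counts within each library (vertical axes starting at 0) for pairs and sets of class II genes, and the share of RT1-Db2 in percent with its exact 95% binomial interval, by group, with bars for the mean of the 2 libraries. The ratio of RT1-B to RT1-D chains is below 0.45 in both sham libraries and at least 0.56 in the ischaemia libraries, and the RT1-Db2 share is 0.312% in CPIP+Veh 2.

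Other genes of the pathway are counted below against all 15531 genes. In CPIP+Veh against sham edgeR called 0.0193% of all genes and DESeq2 0.315%, and an unadjusted p under 0.05 was found on the higher side for 2.34% and on the lower side for 2.59%. In CPIP+ETA against sham these shares were 0.0193%, 0.322%, 2.64% and 3.73%.

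The other class II genes were low. RT1-DOa, the alpha chain of RT1-DO, stood at 0.974 and 0.820 CPM in Sham+Veh, 1.32 and 1.97 CPM in CPIP+Veh, and 1.06 and 1.31 CPM in CPIP+ETA, with a log2 fold change of 0.87 (SE 0.36) in CPIP+Veh against sham that was not called. RT1-Ha had 8 counts over all 6 libraries and was not tested.

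The DNA-binding partners of Ciita lay near sham in CPIP+Veh. Of 7 transcription factors of the X and Y boxes, edgeR called 0 in each comparison, none had an unadjusted p under 0.05 in CPIP+Veh against sham, and their median log2 fold change there was -0.02. Rfx5, an RFX subunit, had 0.03 (SE 0.094) and Rfxap, another, -0.10 (SE 0.094). The adaptor Rfxank had -0.14 (SE 0.16). The NF-Y subunits Nfya, Nfyb and Nfyc had 0.04, 0.03 and -0.13, and Creb1, which can bind the X2 part of the box, -0.02. In CPIP+ETA Rfx5 had -0.29 (SE 0.094) against CPIP+Veh and -0.26 (SE 0.095) against sham. It was the 1 gene of the 7 with an unadjusted p under 0.05 in each of these comparisons. DESeq2 called none of the 7 in any comparison.

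Genes for proteins that cut and route the class II cargo differed little between groups. Of 12 genes, edgeR and DESeq2 called 0 in each comparison, and the median log2 fold changes were 0.04 in CPIP+Veh against sham, 0.02 in CPIP+ETA against CPIP+Veh and 0.03 in CPIP+ETA against sham, with 1, 2 and 3 genes at an unadjusted p under 0.05. The 3 most abundant, were the lysosomal proteases Ctsb and Ctsd and the cysteine protease inhibitor Cst3. In CPIP+Veh against sham Ctsb had 0.03 (SE 0.041), Ctsd 0.05 (SE 0.052) and Cst3 -0.09 (SE 0.057). Ctss, the protease that trims the invariant chain and a gene named after its values were seen, had levels of 32.8 and 35.9 CPM in CPIP+Veh, then 37.0 and 37.1 CPM in CPIP+ETA, all above both sham libraries. Its log2 fold change from sham was 0.19 (SE 0.072) in CPIP+Veh and 0.30 (SE 0.072) in CPIP+ETA, and neither tool called it.

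Of the interferon gamma axis, Ifng itself had 0 counts in all 6 libraries. Of 13 genes 11 were tested, edgeR and DESeq2 called 0 in each comparison, and the median log2 fold change was 0.12 in CPIP+Veh against sham with 10 above 0. The kinase Jak1 had 0.02 (SE 0.061) and the receptor chain Ifngr1 0.10 (SE 0.069). Gbp2, an interferon-induced GTPase and the only gene of the list with an unadjusted p under 0.05 in CPIP+Veh against sham, was singled out after its values were seen. It stood at 28.0 and 24.5 CPM in Sham+Veh, 40.2 and 32.4 CPM in CPIP+Veh, and 24.6 and 28.1 CPM in CPIP+ETA. Its CPIP+ETA libraries thus overlapped sham, and it was highest in CPIP+Veh 1. The chemokines Cxcl9 and Cxcl10, also named after their values were seen, had 1.02 (SE 0.46) and 0.81 (SE 0.43) in CPIP+Veh against sham, with Cxcl9 highest in CPIP+Veh 2 at 2.47 CPM and Cxcl10 in CPIP+Veh 1 at 8.96 CPM. With etanercept (CPIP+ETA against CPIP+Veh) the median of the list was -0.12, and Gbp2 at -0.46 (SE 0.13) and the transcription factor Irf8 at -0.47 (SE 0.17) had an unadjusted p under 0.05.

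Co-stimulatory and adhesion genes showed no calls, with 8 of 8 tested, 0 at an unadjusted p under 0.05 in any comparison, and medians of -0.02, 0.08 and -0.07 in the order of the comparisons above. In CPIP+Veh against sham the T cell co-stimulators Cd80 and Cd86 had -0.48 (SE 0.69) and -0.40 (SE 0.38), Cd40, which receives T cell help, 0.67 (SE 0.38), and Cd83, which stabilises class II on the surface, -0.09 (SE 0.13). The adhesion molecule Icam1 had 0.04 (SE 0.38), the checkpoint ligand Cd274 -0.03 (SE 0.065), Icoslg 0.02 (SE 0.15) and the lectin Lgals3 0.00 (SE 0.058). DESeq2 called none of the 8.

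Cd74 is also a surface receptor for the cytokine MIF, with Cd44 and chemokine receptors as partners. Of 6 such genes 5 were tested and neither tool called any. In CPIP+Veh against sham Mif had -0.05 (SE 0.063), its relative Ddt -0.27 (SE 0.093), Cd44 0.23 (SE 0.10), Cxcr4 -0.23 (SE 0.11) and Ackr3 -0.24 (SE 0.31), and Cxcr2 had 15 counts over 6 libraries. Cxcr4 had -0.56 (SE 0.11) in CPIP+ETA against sham.

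The genes lying between and beside the class II genes had other patterns. Of 6 genes 5 were tested, neither tool called any, and none had an unadjusted p under 0.05 in any comparison. The peptide transporter subunits Tap1 and Tap2 of the class I pathway had 0.40 (SE 0.20) and 0.14 (SE 0.15) as log2 fold change in CPIP+Veh against sham, the immunoproteasome subunits Psmb8 and Psmb9 0.08 (SE 0.25) and -0.03 (SE 0.18), and the chromatin reader Brd2 -0.10 (SE 0.068). Btnl2 had 3 counts over 6 libraries.

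Markers of cells that could carry class II were set beside these levels, and their part in the class II differences was not tested. All 16 macrophage markers were measured, and their summed level was 499 to 575 CPM in Sham+Veh, 653 to 655 CPM in CPIP+Veh and 538 to 629 CPM in CPIP+ETA. Lyz2, Csf1r and Mrc1 were the most abundant, and Lyz2, a lysozyme, stood at 314 and 252 CPM in sham, 416 and 381 CPM in CPIP+Veh, and 242 and 322 CPM in CPIP+ETA. Lyz2 alone made up a large part of each sum, so the macrophage sum and any ratio to it depend heavily on that gene. Csf1r, the growth factor receptor of macrophages, had a log2 fold change of 0.01 (SE 0.074) in CPIP+Veh against sham, and Mrc1, the mannose receptor, -0.18 (SE 0.17). Over the 16 markers the median was 0.05, with 11 above 0 and 1, Lyz2, at an unadjusted p under 0.05. Cd163, a haemoglobin scavenger receptor of tissue macrophages that was named after its values were seen, had levels of 5.21 and 7.76 CPM in CPIP+Veh, both below sham, and of 23.8 and 17.0 CPM in CPIP+ETA, both above it. With etanercept (CPIP+ETA against CPIP+Veh) the 16 markers had a median of 0.03, with 8 above and 8 below 0 and an unadjusted p under 0.05 for 2 on each side. The higher ones were Cd163 at 1.65 (SE 0.23) and Mrc1 at 0.84 (SE 0.17), and the lower ones Lyz2 at -0.50 (SE 0.15) and the chemokine receptor Cx3cr1 at -0.49 (SE 0.20). DESeq2 called Cd163 and Mrc1 there and Cd163 also in CPIP+ETA against sham, and edgeR called none of the 16. The class II sum was 0.518 and 0.607 of the macrophage sum in Sham+Veh, 0.670 and 0.919 in CPIP+Veh, then 0.911 and 0.571 in CPIP+ETA, so CPIP+ETA 2 lay within sham.

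Dendritic cell markers, 11 of 11 in the table and 8 tested, summed to 63.1 to 68.8 CPM in Sham+Veh, 70.0 to 70.7 CPM in CPIP+Veh and 80.4 to 84.9 CPM in CPIP+ETA. The most abundant were Flt3, Clec10a and Zbtb46. The lectin Clec10a, which macrophages also express, stood at 17.5 and 14.3 CPM in sham, 16.2 and 17.4 CPM in CPIP+Veh, and 27.8 and 30.4 CPM in CPIP+ETA. DESeq2 called it in both comparisons of CPIP+ETA, and edgeR in neither. Without Clec10a, left out after its values were seen, the sum was 51.4 and 48.8 CPM in sham, 53.8 and 53.3 CPM in CPIP+Veh, and 57.1 and 50.0 CPM in CPIP+ETA, which overlapped both. The list's median log2 fold change in CPIP+ETA against CPIP+Veh was 0.02, with 5 markers above 0 and 3 below. Zbtb46, a transcription factor of conventional dendritic cells, had a log2 fold change of 0.32 (SE 0.15) in CPIP+Veh against sham, and the growth factor receptor Flt3 0.05 (SE 0.099). The defining markers Xcr1, Ccr7 and Siglech were near 0, with 39, 15 and 16 counts over 6 libraries.

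B and T cell markers were close to 0. The 7 B cell markers in the table summed to 2.38 to 2.52 CPM in Sham+Veh, 1.72 to 2.67 CPM in CPIP+Veh and 2.11 to 2.50 CPM in CPIP+ETA, and only Cd79a passed the filter. Ms4a1 and Pax5, which define B cells, had 22 and 7 counts in all. The 9 T and NK cell markers summed to 3.88 to 4.44 CPM in Sham+Veh, 3.98 to 5.01 CPM in CPIP+Veh, and 8.16 and 3.92 CPM in CPIP+ETA 1 and 2. CPIP+ETA 1, where Ciita was highest, thus also held the highest T and NK cell sum, from markers near 0. The same library had the highest red blood cell sum, 102 CPM, and the lowest Schwann cell sum, 9027 CPM. Whether any of these are linked was not tested.

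Markers of other cells of the ganglion and its blood supply had sums of their own order. Neutrophil and monocyte markers summed to 5.20 to 6.18 CPM in Sham+Veh, 3.85 and 11.4 CPM in CPIP+Veh, and 9.92 to 11.3 CPM in CPIP+ETA, so CPIP+Veh 2 had more of them than CPIP+Veh 1. Endothelial markers summed to 165 to 172 CPM in Sham+Veh, 137 to 145 CPM in CPIP+Veh and 136 to 154 CPM in CPIP+ETA, below sham in all 4 ischaemia libraries. Of the 6 endothelial markers, 3 had an unadjusted p under 0.05 on the lower side in CPIP+Veh against sham, and DESeq2 called Eng, a TGF-beta co-receptor, in CPIP+ETA against sham. Satellite glia ran from 4546 to 5131 CPM over the 6 libraries, and Schwann cell markers from 9027 CPM in CPIP+ETA 1 to 13710 CPM in Sham+Veh 2. Apoe alone, with a mean of 4237 CPM, made up most of the satellite glia sum, so that sum says little of the other markers. Red blood cell transcripts summed to 25.3 to 34.8 CPM in Sham+Veh, 10.8 to 30.4 CPM in CPIP+Veh and 64.1 to 102 CPM in CPIP+ETA.

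**Figure D4:**
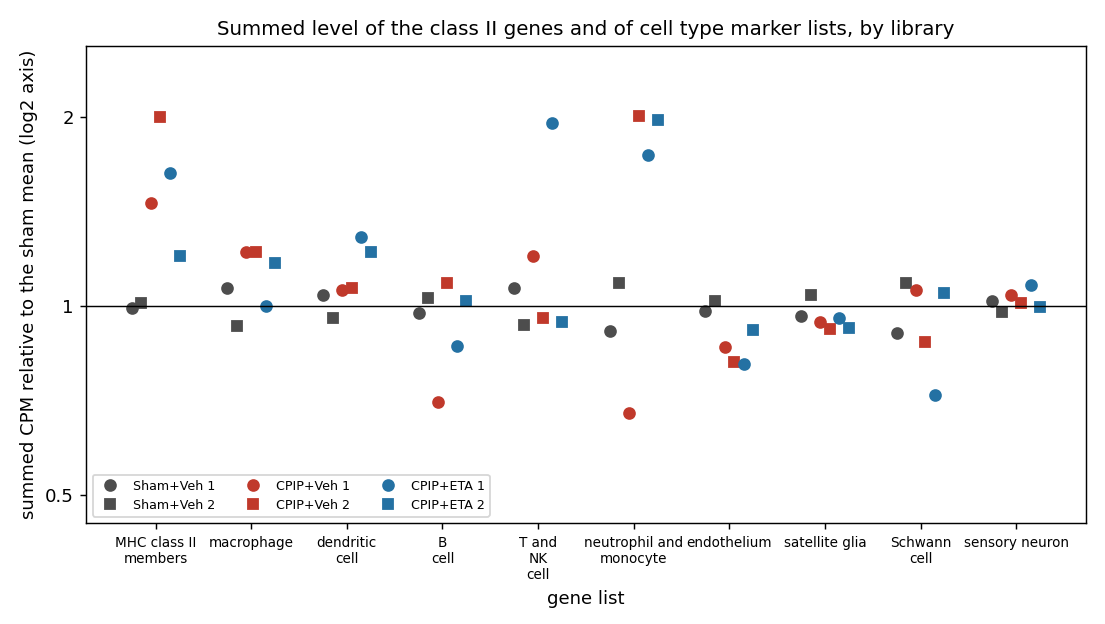
Summed TMM-scaled CPM relative to the mean of the sham libraries (vertical axis, log2 scale) for the 9 class II genes and 9 cell type marker lists, 1 point per library. The class II sum reaches 2.00 in CPIP+Veh 2 and 1.63 in CPIP+ETA 1, with 1.46 for CPIP+Veh 1 and 1.20 for CPIP+ETA 2. Neutrophil and monocyte markers, a low sum, have a different order of libraries. Their values are 2.01 (CPIP+Veh 2), 1.98 (CPIP+ETA 2), 1.74 (CPIP+ETA 1) and 0.676 (CPIP+Veh 1). T and NK cell markers reach 1.96 in CPIP+ETA 1, and macrophage, satellite glia and sensory neuron sums stay nearer to 1.

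Genes with a profile over the 6 libraries most like that of the class II genes were then sought. The measure was the root mean square difference of centred log2(CPM + 1) values from the mean of the 9 genes. It was taken for 11207 other tested genes with a mean of at least 5 CPM. Genes with a provisional symbol (starting with LOC, RGD or AABR) were left out. The nearest was Ptgs1, cyclooxygenase 1, at 0.081, followed by the myeloid lectin receptor Clec7a (0.127), the class I heavy chain RT1-A1 (0.132) and Fam134b, which marks endoplasmic reticulum for autophagy (0.157). Then came Dock8, an exchange factor of immune cells (0.163), the collagen Col22a1 (0.171), Anp32a (0.176), the thrombin-linked receptor F2rl2 (0.184), the helicase Dhx37 (0.184) and Nt5dc2 (0.187). A flat profile had a difference of 0.347, and the median of the genes compared was 0.357. Ptgs1 stood at 7.63 and 7.38 CPM in Sham+Veh, 10.7 and 13.1 CPM in CPIP+Veh, and 12.7 and 9.85 CPM in CPIP+ETA. RT1-Da, at 0.039, and Cd74, at 0.100, were closest to the mean of their own group, and RT1-Bb (0.383), RT1-Ba (0.323) and Ciita (0.307) farthest from it. With 6 points that share their libraries, and 11207 genes compared, this likeness is a description only.

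**Figure D5:**
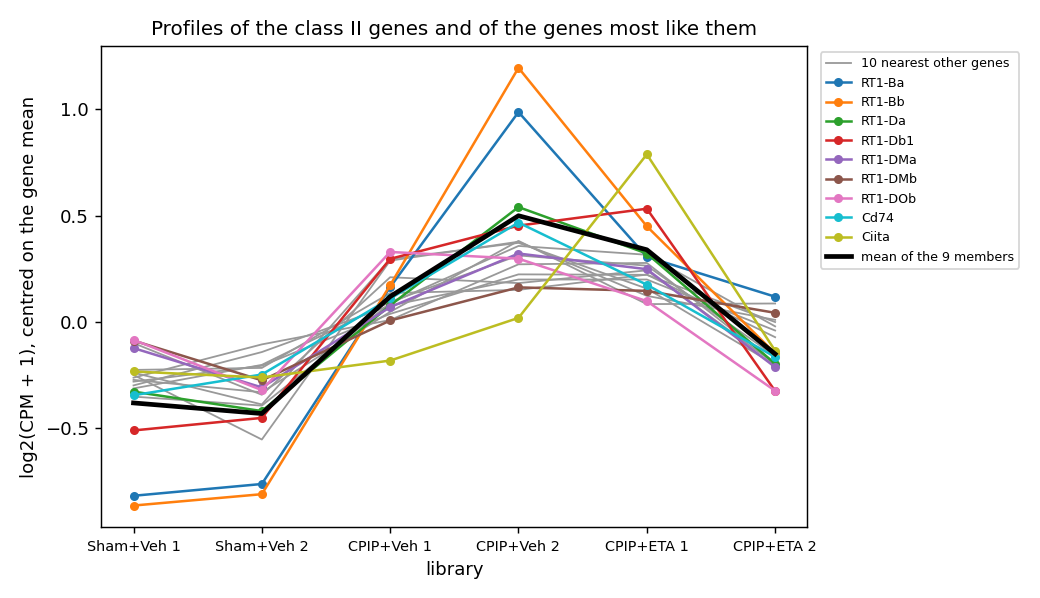
Centred log2(CPM + 1) values (vertical axis) of the 9 class II genes, their mean and the 10 nearest other genes across the 6 libraries (horizontal axis; lines only join the points of a gene). The mean runs from -0.38 and -0.43 in sham to 0.50 in CPIP+Veh 2, and Ciita peaks in CPIP+ETA 1 instead.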

How the data were processed

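The values are expected counts per gene, estimated reads that need not be whole, as deposited by the authors for 6 libraries. They were made on build Rnor_6.0 per the submitters' processing notes, and the sources used here name no aligner, counter, strand setting or annotation. Per the labels' protocols, RNA came from Trizol extracts with a RIN of at least 8. Counts were rounded, and 2907 genes blank in every library were set to 0. In R 4.3.3, edgeR 4.0.16 fitted all 6 libraries with group as the only term (quasi-likelihood F-test, TMM, filterByExpr with minimum count 10 and minimum total 15, 3 residual degrees of freedom), and p-values were adjusted by Benjamini-Hochberg over 15531 genes and called under 0.05. SEs were obtained from each fold change and the root of its F statistic. DESeq2 1.42.0 and voom of limma 3.58.1 were alternatives, beside other scalings, filters, samples in the fit, the title number as a block, and leaving out each library, a lone library then being given the spread of the remaining groups. The procedure was run on simulated counts as a check of the code. Nothing is read from that run on how often differences of the size seen here would be found. The members and gene lists were chosen with earlier results of these data known. Named were every member, the 3 most abundant genes of each list (all where it had at most 8), and the 10 nearest profiles, and other genes are marked as named after their values were seen. A gene that this rule names in the interferon list is not reported here. Marker lists are described by their sums and leading genes. Intervals cover counting error at 95% only. Promoters are RefSeq's, and 20690 gene identifiers matched its gene table. Figures were drawn with matplotlib 3.10.9.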

Additional observations from a re-analysis of the deposited data

How the results depend on the processing

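Scaling left the 9 genes as they were: under RLE, upper-quartile and library-total scaling their medians stayed within 0.01 of the values reported. The number of genes called over the whole table depended on the tool. DESeq2 called 49 genes in CPIP+Veh against sham, 21 in CPIP+ETA against CPIP+Veh and 50 in CPIP+ETA against sham. In the same order edgeR called 3, 0 and 3. For CPIP+ETA against CPIP+Veh limma-voom also called none. There 800 genes, or 5.15%, had an edgeR unadjusted p under 0.05, close to the share which that threshold gives when no gene differs. For CPIP+ETA against sham limma-voom and the fit of only the 2 groups each called 1. Leaving out a library gave 1 to 3, 0 and 1 to 2 genes, and medians of the 9 genes of 0.46 to 0.89, -0.52 to 0.01 and 0.17 to 0.71. In CPIP+ETA against CPIP+Veh the sign turned without CPIP+Veh 2 for RT1-Ba (0.05, range -0.78 to 0.05), RT1-Bb (0.01, range -1.03 to 0.01) and RT1-Da (0.01, range -0.53 to 0.01), without CPIP+ETA 2 for RT1-Db1 (range -0.72 to 0.16) and RT1-DMa (range -0.44 to 0.05), without CPIP+Veh 1 or CPIP+ETA 1 for RT1-DMb (-0.07 and -0.04, range -0.07 to 0.10), and without CPIP+ETA 1 for Ciita (range -0.07 to 1.03). In CPIP+ETA against sham RT1-DOb had -0.27 without CPIP+ETA 1. The cause was not tested. Of 405 alternative values for single genes, 381 were counted as unchanged, by a rule that differed between comparisons. Against sham, the log2 fold change had to move by less than the SD between replicate libraries, whatever its adjusted p. In CPIP+ETA against CPIP+Veh it had to keep its sign and its side of the threshold, whatever its size. Of the rest, 16 differences from sham moved further and 8 of the other values turned their sign. Title numbers share only a number: differences between libraries 1 and 2 correlated across genes at 0.01, -0.07 and 0.12 between groups, and with the number as a block the counts were 3, 0 and 3 and the medians 0.72, -0.25 and 0.46. Depth limits RT1-DOb and Ciita, the lowest members.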
